A study of Mus musculus with 2 samples.

Results

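The genes described here encode the PIWI proteins of the mouse and 7 of their cofactors, read across a peak list of the histone mark H3K4me3 in fetal male germ cells. The 10 genes are Piwil1, Piwil2, Piwil4, Mov10l1, Mael, Gtsf1, Asz1, Pld6, Spocd1 and Tex15, among 21887 protein-coding genes on the chromosomes used. Peaks that overlapped the body of a gene or its 5 kb flanks were taken, which gave 23 of the 135064 peaks in the list. At least 1 such peak was present for 10 of 10 genes, against 88.3% of all protein-coding genes.

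The cells were prospermatogonia at E17.5, sorted fresh from the mouse on an Oct-GFP reporter, and 130000 cells went into each CUT&RUN assay. CUT&RUN tethers a nuclease to an antibody bound in chromatin, and sequencing then reads the DNA pieces it cuts loose. There was 1 library made with an antibody against H3K4me3 and 1 made with rabbit IgG, with no replicates; the peaks are those of the H3K4me3 library, and the IgG library was not analysed here. Strain, genotype and the number of embryos are not stated in the labels. In the absence of replicates no test between groups was possible, and intervals cover counting error only: those of fragments and folds are exact Poisson intervals at 95%, and those of shares are Wilson intervals at 95%.

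PIWI proteins bind piRNAs, small RNAs of the germ line that guide the silencing of transposons. In prospermatogonia, cytoplasmic PIWI proteins cut transposon transcripts and make further piRNAs, while a nuclear PIWI protein guides DNA methylation to transposons as the genome is methylated anew. H3K4me3 is a mark of active and poised promoters. Its presence at a gene start does not measure transcription.

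Among the 10 genes, 9 carried a peak within 1000 bp of an annotated end, against 74.5% of protein-coding genes. All of these 9 had the mark at 1 end and not at the other, an arrangement found in 60.7% of protein-coding genes, while 13.8% had it at both. Annotated transcription starts were at hand for 7 of the 10 genes (Piwil1, Piwil4, Mov10l1, Mael, Gtsf1, Asz1 and Pld6), and 7 of 7 were marked within 1000 bp of a start, against 73.3% of the 17492 protein-coding genes with a start in the same table. Spocd1 and Tex15 had their peaks at the annotated end of lower coordinate. Piwil2 was unmarked at both ends and had an internal peak.

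**Figure D1:**
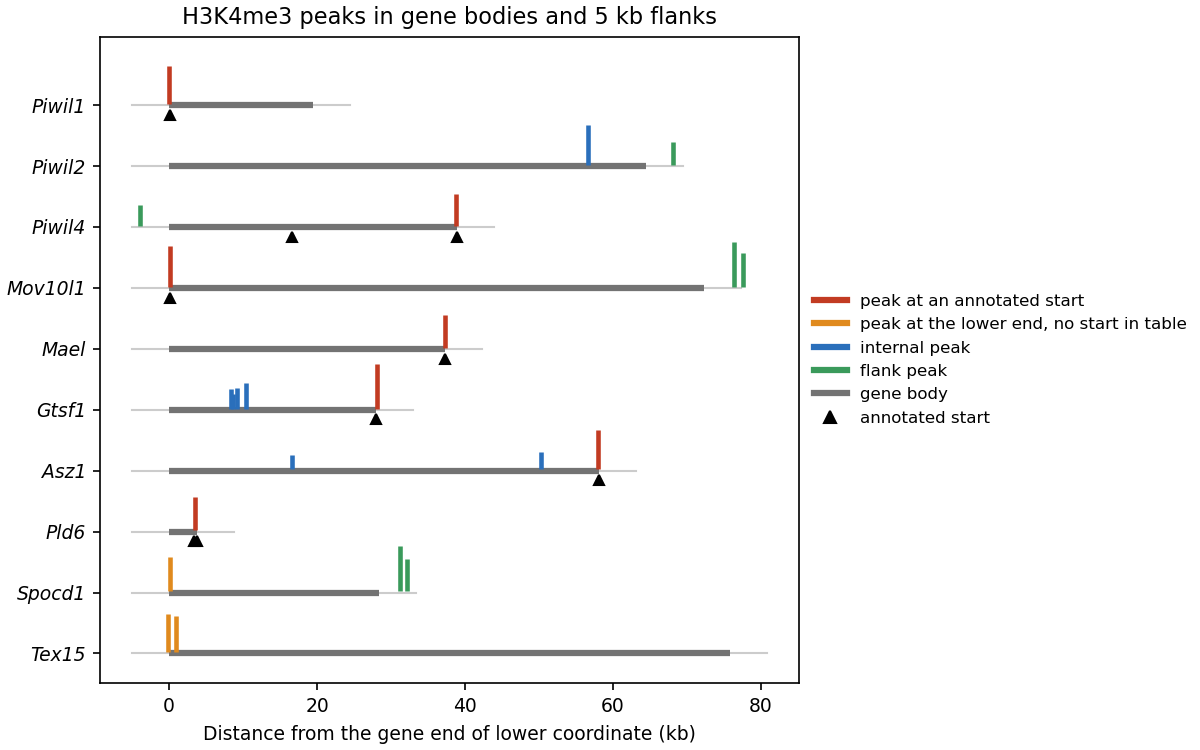
Peaks along the 10 genes, each drawn from its annotated end of lower coordinate in kb, with 5 kb flanks as thin lines and gene bodies as thick lines. The height of each peak line is proportional to the fragments at its summit, and triangles mark annotated starts; in 9 genes a tall line stands at an end, and in Piwil2 it stands inside the gene.

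The sizes of these main peaks (the start or end peak of highest fold, and the internal peak for Piwil2) were compared across the group. Widths ran from 810 to 1644 bp, and summit pileups, the number of fragments stacked at the highest point, from 32 to 45. The fold enrichment, which sets that pileup against the peak caller's local background, lay between 5.76 and 9.84. Of the 45 pairs of genes, 0 had fold intervals that did not overlap, and 0 had pileup intervals that did not overlap. The order of the genes by level is therefore not resolved by the counts. A peak of a fold of at least 5 stood at an end of 9 of the 10 genes, against 57.4% of protein-coding genes.

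The PIWI genes themselves come first. Piwil4 encodes MIWI2, the nuclear PIWI protein of fetal male germ cells that guides DNA methylation. Its peak covered chromosome 9 from 14740150 to 14740995 in mm10, had 32 fragments (21.9 to 45.2) over a background of 2.35, and the highest fold of the group, 9.84 (6.82 to 13.8). Its pileup was also the lowest of the group, so that the order by fold and the order by fragments differ. The summit stood 95 bp after the start, and the peak ran from 323 bp before it to 522 bp after it. A second annotated start of Piwil4, at position 14718387, had no peak within 1000 bp. The remaining peak near the gene, of 537 bp with 21 fragments, lay in the flank 3.65 kb below the lower end, with no other annotated gene end within 1000 bp.

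Piwil2 encodes MILI, a cytoplasmic PIWI protein that cuts transposon RNA and is present from fetal germ cells onwards. Its annotated body spans 64.4 kb on chromosome 14, from 70372477 to 70436898. Its peak lay inside this body from 70428548 to 70429790, with the summit 7.45 kb below the upper end. It was 1243 bp wide, with 40 fragments (28.6 to 54.5) and a fold of 7.22 (5.21 to 9.77). These values lie inside the ranges of the start and end peaks of the other 9 genes. Among all protein-coding genes, 8.88% had an internal peak and none at an end. The peak shared 50 bp with the annotated end of Gm24890, a small nuclear RNA gene inside Piwil2, and 96% of it lay above that gene. Its summit was 852 bp beyond the end of Gm24890. Whether the peak marks a start of Piwil2 or of Gm24890 cannot be told from its position. A second peak, 274 bp wide with 23 fragments and a fold of 3.12, lay in the upper flank inside the body of Polr3d, which encodes a subunit of RNA polymerase III.

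Piwil1 encodes MIWI, the PIWI protein known from spermatocytes and spermatids after birth. It had 1 peak in its body and flanks, on chromosome 5 from 128735500 to 128736709. This peak was 1210 bp wide with 38 fragments (26.9 to 52.2), and its fold was 8.44 (6.04 to 11.5). Its summit stood 229 bp after the start. The interval overlaps those of Piwil2 and Piwil4. A difference in the mark between the PIWI gene of later stages and the fetal PIWI genes was not tested. The next peak in either direction was 24.6 kb away.

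Cofactors that make piRNAs had the mark at their starts. Mov10l1 encodes an RNA helicase that feeds piRNA precursors into processing. Its peak on chromosome 15, from 88982283 to 88983756, was 1474 bp wide with 41 fragments (29.4 to 55.6) and a fold of 7.59 (5.5 to 10.2). The summit lay 473 bp before the start, and the upper end of the neighbouring gene Mlc1 was inside the peak, 301 bp before the Mov10l1 start. The summit was itself 172 bp inside Mlc1, whose direction in the table is opposite to that of Mov10l1. Mlc1 is on the minus strand, so the end inside the peak is the upstream end of its record. The 1 start listed for Mlc1, at 88978553, lies 3.73 kb below the peak. Whether the peak marks a start of Mov10l1, of Mlc1 or of both cannot be told from its position. In the upper flank 2 further peaks lay at Panx2, a pannexin channel gene, with 45 and 34 fragments. The farther of them began 4.98 kb above Mov10l1, just within the 5 kb limit.

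Pld6 encodes a mitochondrial nuclease that cuts piRNA precursors, known in flies as Zucchini. The gene is 3.77 kb long and had 1 peak, on chromosome 11 from 59786709 to 59788034. It was 1326 bp wide with 34 fragments (23.5 to 47.5) and a fold of 7.55 (5.30 to 10.5). Both annotated starts of Pld6 lay within it, with the summit 312 bp after the upstream start and 123 bp before the downstream start. The peak therefore does not tell the starts apart.

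Asz1 encodes GASZ, a scaffold protein on the mitochondria of germ cells. Its peak was the widest of the group, 1644 bp, on chromosome 6 from 18108158 to 18109801. With 40 fragments (28.6 to 54.5) over the highest background of the group, 6.11, it had the lowest fold, 5.76 (4.16 to 7.80). Its summit lay 493 bp before the start, although the peak reached 903 bp after it. The gene also held 2 narrow internal peaks, of 158 and 226 bp with 15 and 18 fragments, and no other annotated gene end lay within 1000 bp of either.

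Gtsf1 encodes a small zinc finger protein that binds PIWI proteins and aids their cutting of RNA. Its start peak on chromosome 15, from 103429916 to 103431088, had the most fragments among the main peaks, 45 (32.8 to 60.2). Its fold of 9.01 (6.62 to 12.0) was second to that of Piwil4. The summit stood 6 bp after the annotated start. Inside the gene, with summits 8.32 to 10.4 kb above its lower end, lay 4 internal peaks of 182 to 420 bp, with 15 to 26 fragments. Of these, 3 had summits 147, 545 and 916 bp after the start of Gm52195, a long noncoding RNA gene of the opposite direction that overlaps Gtsf1, and the summit of the fourth lay 2208 bp after it.

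Mael encodes Maelstrom, a protein of germ cell granules needed for the silencing of transposons. It had 1 peak, on chromosome 1 from 166237868 to 166239389, and no other peak in its body or flanks. The peak was 1522 bp wide with 33 fragments (22.7 to 46.3) and a fold of 7.21 (5.03 to 10). Its summit lay 163 bp after the start.

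Spocd1 and Tex15 encode nuclear factors that act with MIWI2 in the methylation of transposons. Spocd1 had a peak of 1082 bp on chromosome 4, from 129928322 to 129929403, with 35 fragments (24.4 to 48.7) and a fold of 8.28 (5.83 to 11.4). The summit lay 42 bp inside the lower end. Beyond the upper end, 2 peaks with 46 and 33 fragments lay at the long noncoding RNA gene 1700003M07Rik. At Tex15 the mark was split: a peak of 810 bp with 39 fragments and one of 788 bp with 36 fragments stood 297 bp apart on chromosome 8, from 33516070 to 33517964. Together they spanned 1895 bp around the lower end, and their folds were 5.97 (4.29 to 8.10) and 5.51 (3.9 to 7.57). Read as 1 domain, the mark at Tex15 was wider than any single main peak of the other genes.

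Around annotated starts the peaks lay on both sides. The 300 bp window from 250 bp before a start to 50 bp after it lay wholly inside the peak for 8 of the 9 annotated starts of the 7 genes, the exception being the unmarked second start of Piwil4. The share of all protein-coding starts covered in this way was not counted. Over start peaks of all protein-coding genes, the median reach was 513 bp before the start and 742 bp after it. Summits ranged from 493 bp before to 312 bp after the start. Across the 12813 protein-coding genes with a start peak, the median summit stood 107 bp after the start, with the middle 50% between 237 bp before and 459 bp after it. The summits of Asz1 and Mov10l1 lay farther upstream than this middle range, and those of the other 5 genes, counted from the upstream start of Pld6, lay inside it.

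**Figure D2:**
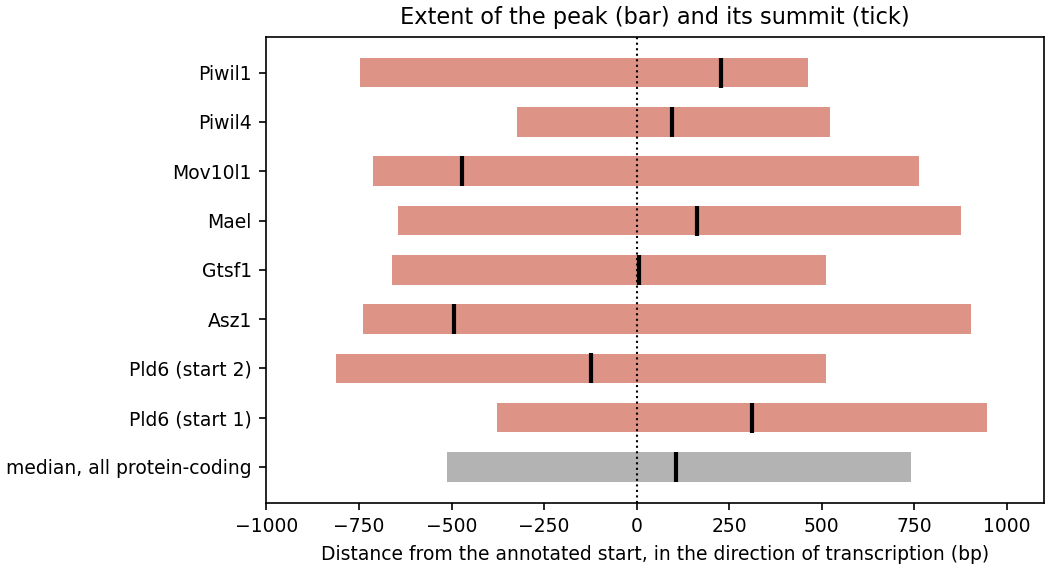
Extent of the peak (bar) and its summit (tick) around each marked annotated start, in bp along the direction of transcription, for the 7 genes with a start in the table and for the medians over 12813 protein-coding genes. Pld6 appears with both of its starts; the summits of Mov10l1 and Asz1 stand 473 and 493 bp before the start.

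The promoters of 4 genes shared a sequence that the choice of genes did not use. They are shown because each holds CACGTG, an E-box, which is the same on both strands and does not overlap the other motifs searched. Promoter sequences are from RefSeq, build GRCm38.p6, which has the coordinates of mm10; each runs 5′ to 3′ along the gene from 250 bp before the start to 50 bp after it, and capitals mark the E-box. The windows are chr5:128735996-128736295 on the plus strand for Piwil1, chr15:88982744-88983043 on the plus strand for Mov10l1, chr1:166238695-166238994 on the minus strand for Mael and chr11:59787608-59787907 on the minus strand for the upstream start of Pld6.
Piwil1: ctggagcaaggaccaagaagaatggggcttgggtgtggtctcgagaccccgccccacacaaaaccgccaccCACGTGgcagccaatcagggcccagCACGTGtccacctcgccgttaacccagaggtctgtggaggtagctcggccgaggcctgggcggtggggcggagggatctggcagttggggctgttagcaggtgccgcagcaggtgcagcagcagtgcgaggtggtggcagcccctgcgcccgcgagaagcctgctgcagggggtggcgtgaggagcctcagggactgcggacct
Mov10l1: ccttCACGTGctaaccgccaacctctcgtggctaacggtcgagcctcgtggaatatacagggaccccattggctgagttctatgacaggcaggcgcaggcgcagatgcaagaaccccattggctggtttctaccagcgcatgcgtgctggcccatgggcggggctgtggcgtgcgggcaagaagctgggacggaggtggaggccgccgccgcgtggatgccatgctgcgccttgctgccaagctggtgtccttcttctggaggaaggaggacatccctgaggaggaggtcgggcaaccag
Mael: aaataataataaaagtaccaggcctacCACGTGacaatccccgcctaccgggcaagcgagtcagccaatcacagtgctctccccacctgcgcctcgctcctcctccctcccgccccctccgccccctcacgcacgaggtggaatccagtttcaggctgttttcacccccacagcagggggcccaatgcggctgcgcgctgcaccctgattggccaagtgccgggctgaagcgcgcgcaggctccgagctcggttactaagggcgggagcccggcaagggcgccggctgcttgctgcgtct
Pld6: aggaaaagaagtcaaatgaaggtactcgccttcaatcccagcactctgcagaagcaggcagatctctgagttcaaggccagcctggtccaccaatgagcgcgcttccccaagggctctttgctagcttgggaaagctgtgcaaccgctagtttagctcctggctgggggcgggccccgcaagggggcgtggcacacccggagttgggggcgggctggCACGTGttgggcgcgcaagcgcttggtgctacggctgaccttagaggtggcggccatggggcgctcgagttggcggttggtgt

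The Piwil1 window holds 2 E-boxes, which begin 179 and 154 bp before the start. The Mov10l1 E-box begins 246 bp before the start, that of Mael 223 bp and that of Pld6 33 bp. All 4 windows lie inside H3K4me3 peaks, as do the windows of all other marked starts of the group. An E-box was present at a start of 4 of the 7 genes in the table, against 8.91% of protein-coding genes with a start in it. Per start the share was 7.15% of all 32851 starts, and for protein-coding starts with a ratio of observed to expected CpG from 0.5 to 0.75 it was 9.95%, or 11.8% from 0.75 upwards, which are the classes that hold these genes. Among the other piRNA pathway genes 6 of 14 had one: Ddx4, Dnmt3l, Fkbp6, Stk31, Tdrd1 and Tdrd9. Among paralogs of the 10 genes 0 of 10 had one. The match is a description of letters, and no binding was measured.

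Other motifs were counted on both strands in the windows of the 9 annotated starts, 6 of which have a CpG ratio from 0.5 to 0.75 and 2 a ratio of 0.75 and over. GGGCGG, the GC box, was present at 6 of the 9 starts (those of Asz1, Mael, Mov10l1, Piwil1 and both of Pld6), against 64.2% and 76.7% of protein-coding starts in these classes, which is near the background. CCAAT was present at 4 starts, the same as hold an E-box, against 40.3% and 35.3%. CCGTTA, a MYB core, was found at 2, those of Piwil1 and Mov10l1, against 3.46% and 4.49%, while CAGTTA, another MYB core, was at 0, against 7.39% and 4.32%. TCCCGC, an E2F core, was found at the Mael start alone, where it overlaps the GC box, against 33.4% and 46.7%. TATAAA was found at 1 start, that of Piwil4 at 249 bp before it, against 12.6% of all protein-coding starts. TGACGTCA was found at 0, against 2.23%.

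Piwil4 and Gtsf1, which had the highest folds in an order that is left unresolved, have neither an E-box nor a GC box in these windows. Their promoters are shown with CpG sites in capitals, since both have fewer CpG sites than the other marked starts of the group. The windows are chr9:14740623-14740922 on the minus strand for Piwil4 and chr15:103430378-103430677 on the minus strand for Gtsf1, also from RefSeq build GRCm38.p6.
Piwil4: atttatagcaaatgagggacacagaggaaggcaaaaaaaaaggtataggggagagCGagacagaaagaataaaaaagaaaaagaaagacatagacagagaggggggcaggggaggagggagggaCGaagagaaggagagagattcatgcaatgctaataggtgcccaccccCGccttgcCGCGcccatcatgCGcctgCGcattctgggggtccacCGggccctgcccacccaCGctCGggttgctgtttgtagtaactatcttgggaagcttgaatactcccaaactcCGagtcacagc
Gtsf1: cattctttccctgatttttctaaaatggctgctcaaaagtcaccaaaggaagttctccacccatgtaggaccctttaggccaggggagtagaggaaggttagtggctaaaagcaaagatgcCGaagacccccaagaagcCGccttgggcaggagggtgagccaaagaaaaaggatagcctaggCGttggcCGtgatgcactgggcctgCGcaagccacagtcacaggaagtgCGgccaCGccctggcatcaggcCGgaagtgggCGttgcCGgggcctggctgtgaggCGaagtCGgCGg

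The Piwil4 window has 11 CpG sites and the Gtsf1 window 13, while Asz1 has 17, Piwil1 18, Mov10l1 20, Mael 24, and Pld6 18 at the upstream and 25 at the downstream start. The median over 21263 protein-coding starts was 13. As a ratio of observed to expected CpG, the 8 marked starts lay between 0.531 and 0.783, against a median of 0.567 over protein-coding starts. By this ratio Piwil1, at 0.535, lay between Gtsf1 at 0.531 and Piwil4 at 0.543. A link between CpG content and fold was not tested. The unmarked second start of Piwil4 has 0 CpG sites.

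Across all protein-coding genes the marked share was higher in classes of higher CpG content. Of protein-coding starts with a ratio from 0.5 to 0.75, 97.3% had a peak within 1000 bp (Wilson interval 96.7 to 97.7), and this class held 6 of the 9 annotated starts of the group, all marked. In the class of 0.75 and over 99.2% were marked (99 to 99.4), with Mael and Asz1 marked. Between 0.25 and 0.5 the share was 64.6%, and below 0.25 it was 22.4% (21.3 to 23.5), the class of the unmarked Piwil4 start. The 8 marked starts of the group are read against these shares, which leave almost no starts unmarked in their classes.

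**Figure D3:**
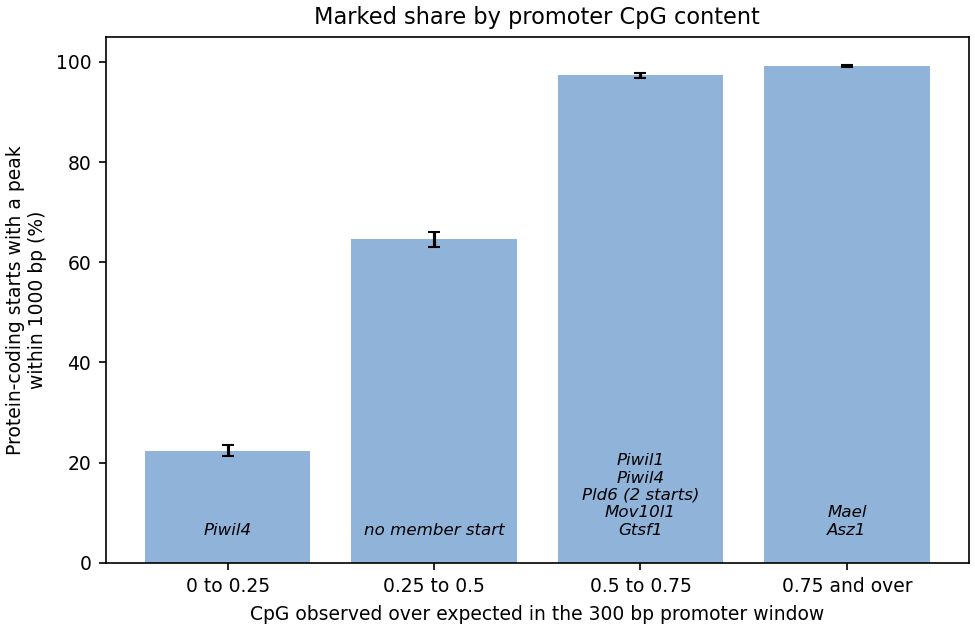
Share of protein-coding starts with an H3K4me3 peak within 1000 bp, in %, by the ratio of observed to expected CpG in the 300 bp promoter window, with Wilson intervals at 95%. Names of the genes described stand in the class of each start; the share is 22.4% in the lowest class and 99.2% in the highest.

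In level, the folds of the group lay mostly above the median of all gene starts and the pileups mostly below it. Over the 10 main peaks the median fold was 7.57, against 6.15 over start peaks of all protein-coding genes, and 8 of the 10 were above that median. The median summit pileup was 38.5 fragments, against 42, and 1 of the 10, Gtsf1, was above that median. The local background had a median of 3.91 fragments, against 5.96, and 9 of the 10 were below that median, Asz1 being the exception. Gtsf1 combined a high fold with the highest pileup of the group, while the other 7 folds above the median stood beside pileups below the median. The median width of the 10 was 1226 bp, against 1157 bp. No test was made of these differences, since the genes were chosen with earlier results of these data known.

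**Figure D4:**
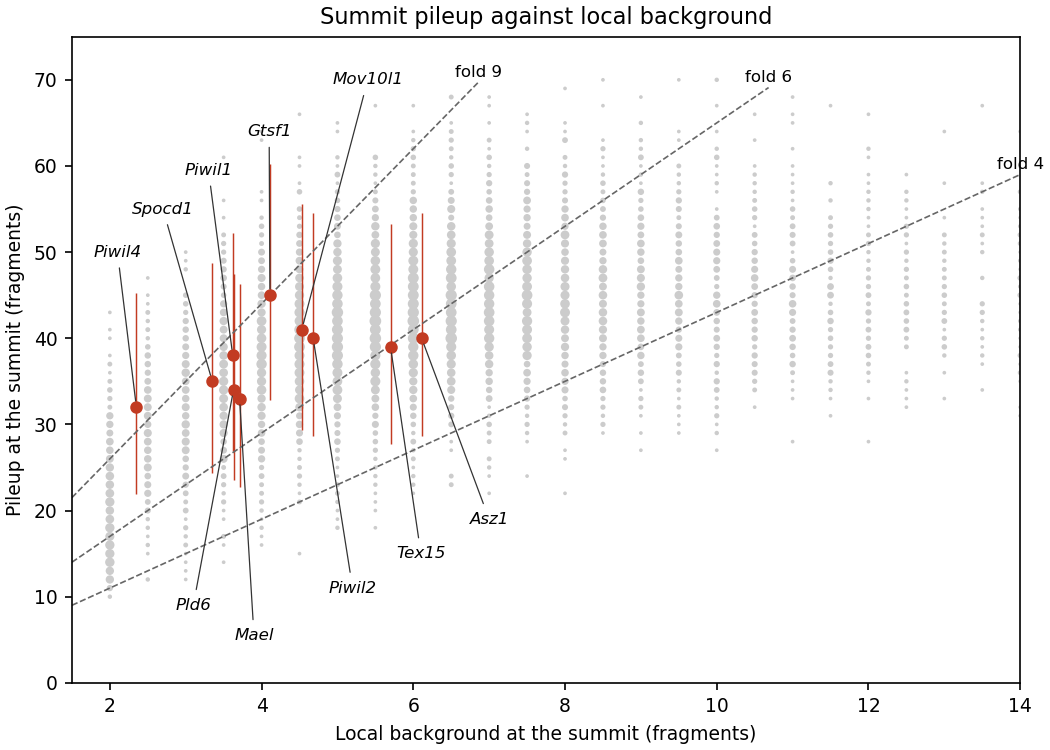
Fragments at the summit against the local background in fragments, for the main peaks of the 10 genes (red, with Poisson intervals at 95%) and for start peaks of all protein-coding genes (grey, background rounded to 0.5, larger dots for more genes, 221 of 12813 outside the axes). Dashed lines join equal folds. Most of the 10 genes stand at the left, where a pileup below the median of start peaks can give a high fold.

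Most of the main peaks stood farther from the next peak than the median start peak. From the main peak to the next peak in either direction, the distance was 26.9 kb at Mov10l1, 24.6 kb at Piwil1, 21.7 kb at Spocd1, 21.1 kb at Pld6, 14.5 kb at Gtsf1 and 14.4 kb at Mael. It was 10.6 kb at Piwil2, 9.69 kb at Piwil4 and 6.78 kb at Asz1. Over start peaks of all protein-coding genes the median distance was 3.52 kb, and 9 of the 10 genes exceeded it. Tex15, with its split mark, was the exception at 0.297 kb. The order by distance and the order by background differed in part. Asz1 and Tex15, with the highest backgrounds of 6.11 and 5.70 fragments, had the shortest distances, but Piwil4, with the lowest background of 2.35, had the third shortest, and Mov10l1, with the longest, had 4.53.

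Peaks inside the gene bodies were counted next. An internal peak more than 1000 bp from both ends was present in 3 of the 10 genes (Piwil2, Gtsf1 and Asz1), against 40.8% of the 14563 protein-coding genes within the length range of the group. The other 7 were marked at an end and had none, as had 47.7% of the genes in that range. Apart from the Piwil2 peak, the 6 internal peaks were 158 to 420 bp wide with 15 to 26 fragments, below the widths and pileups of all main peaks. Both counts rest on 10 genes and were not tested against the shares of all genes.

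The rest of the piRNA pathway was read from a list of 20 genes, and 17 of them were marked at an annotated end, against 74.5% of protein-coding genes. The highest folds were those of Tdrd12 at 9.20 (6.79 to 12.2), Stk31 at 8.58 (6.24 to 11.5) and Morc1 at 8.25 (5.90 to 11.2). Tdrd12 and Stk31 encode Tudor domain proteins, and Morc1 an ATPase that silences transposons in male germ cells. Tdrd7, Fkbp6 and Dnmt3c were unmarked at their ends. Tdrd7 and Fkbp6 had internal annotated starts that were marked, with folds of 6.41 and 5.19, and both had internal peaks, like Piwil2. Dnmt3c, a DNA methyltransferase of male germ cells that the table lists as a pseudogene under another symbol, had no peak. Tdrd1, a Tudor partner of MILI, had the lowest fold among the marked genes, 3.18 (2.16 to 4.52), with 29 fragments over a background of 8.44. Its fold interval did not reach that of Piwil4, Gtsf1, Piwil1, Spocd1, Mov10l1, Pld6 or Mael. These intervals hold the background fixed, and the main peaks of the 10 genes had backgrounds of 6.11 at most. Tdrd1 was named after its value was seen, as the lowest of the 17 marked genes, so the separation is that of an extreme. How often fold intervals stand apart over all protein-coding genes was not counted. Of the pathway genes with a start in the table, 14 of 14 were marked there, against 73.3% of protein-coding genes with one. Of starts with a CpG ratio from 0.5 to 0.75, 97.3% were marked, and 99.2% from 0.75 upwards. The CpG classes of these 14 genes are not given here. Median folds with unmarked genes as 0 were 7.57 in the 10 genes, 6.79 in the 20 genes and 5.47 over all protein-coding genes.

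Paralogs outside the pathway, or without a settled role in it, were read the same way. Of 11 paralogs 7 were marked at an annotated end, against 74.5% of protein-coding genes. Folds at the ends ran from 5.16 to 7.52, with a median of 5.82 when unmarked genes count as 0. Of the paralogs with a start in the table, 7 of 10 were marked there, against 73.3% of protein-coding genes with one, again without regard to CpG class. Pld1 also had an annotated start with a fold of 8.35. The Argonaute genes, relatives of the PIWI genes that act with microRNAs and siRNAs in most tissues, had folds of 7.11 at Ago1, 6.62 at Ago4 and 5.16 at Ago2. Ago3 was unmarked at its ends but had an internal annotated start with a fold of 5.32. Mov10, the relative of Mov10l1, had 5.82 (4.25 to 7.80), below 7.59 at Mov10l1 with overlapping intervals. Gtsf1l and Pld4 had no peak in their bodies or at their ends. Gtsf2, a paralog of Gtsf1, was unmarked at its ends and its annotated start, but 1139 bp of its body was covered by a peak with 49 fragments and a fold of 9.41. Pileups at marked ends had medians of 38 fragments in the 9 genes, 42 in the other pathway genes and 43 in the paralogs, and backgrounds had medians of 3.71, 5.64 and 5.89 fragments.

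**Figure D5:**
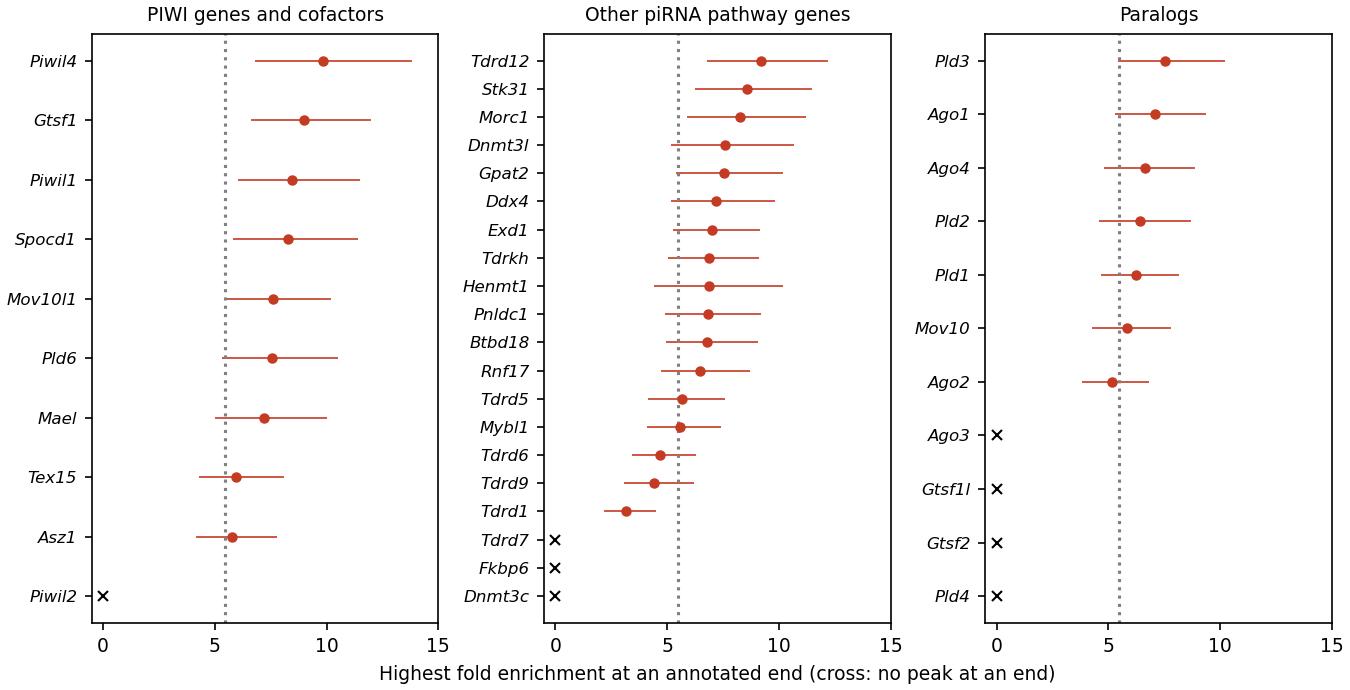
Highest fold at an annotated end for the 10 genes, the 20 other piRNA pathway genes and the 11 paralogs, with Poisson intervals at 95%; crosses at 0 are genes with no peak at an end. The dotted line is the median over all protein-coding genes, 5.47, with unmarked genes as 0; all 9 marked genes of the first panel stand above it.

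Markers of the sorted cells and of other testis cells were read in the same way, against the 74.5% of protein-coding genes marked at an end. Of 8 germ cell markers, which include Mael, 7 were marked at an end, and Nanos2 had no peak. Folds of the 7 ran from 3.17 at Pou5f1 to 7.6 at Tex101. The low fold at Pou5f1 stood beside a high pileup, 106 fragments over a background of 32.7. The median over the 8, with Nanos2 as 0, was 5.08, against 5.47 over all protein-coding genes. Sertoli markers were marked in 4 of 6 cases, with folds of 6.93 at Dhh, 3.59 at Amh, 3.33 at Sox9 and 2.54 at Wt1. Their median fold, with unmarked genes as 0, was 2.93, and the marked ones had a median background of 10.9 fragments. The other 2, Gata4 and Amhr2, held 14 and 3 internal peaks. Leydig markers were marked in 1 of 5 cases: Cyp11a1 had a fold of 9.9 (7.42 to 13) with 51 fragments, against a highest fold of 9.84 among the 10 genes with an overlapping interval, while Cyp17a1, Hsd3b1, Insl3 and Star had no peak. Of 4 markers of endothelium or blood, 1 was marked at an end, Hbb-bs with a fold of 9.16 (6.20 to 13.1), and Pecam1, Cdh5 and Ptprc held internal peaks, the widest with folds of 10.8, 5.36 and 12.0. These marker counts do not settle the purity of the sort, and the part of other cells in the results was not tested.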

How the data were processed

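CUT&RUN gave 1 H3K4me3 library. MACS2 2.1.0, Bowtie2 2.5.0 and Trim Galore, next to deepTools 3.5.1, bedtools 2.27.1 and SAMtools 1.16.1, are named with builds mm10 and sacCer3 per the submitters' processing notes, without roles or settings. The authors deposited a peak list with a fold (a ratio of summit pileup to local background), −log10 p, −log10 q and a score for each peak. These deposited values describe single peaks and were used within the list alone. Peak names carry the letters IgG; whether IgG entered the background is not stated.

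Whole-number pileups and backgrounds were recovered from the fold, taken as (pileup + 1)/(background + 1), and from the −log10 p, read as a Poisson upper tail. The search covered pileups up to 2000 and matched the −log10 p to within 0.0001 in 135053 of 135064 peaks. The lowest pileup was 9 fragments; the total depth is unknown. Peaks needed a −log10 q of at least 2, which removed 0.

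Genes are those of RefSeq GRCm38.p6, matched by symbol (Dnmt3c by synonym). Starts came from its promoter table; Piwil2, Spocd1 and Tex15 have no entry there, so both annotated ends were used. The members, gene lists and motifs were chosen with earlier results of these data known. All 10 genes are named with their peaks; of the other pathway genes, the 3 of highest fold and the unmarked; of the paralogs, the Ago genes, Mov10 and the unmarked. Others were named after their values were seen. Alternatives changed the window, overlap, flank and peak thresholds. On data simulated with the same relation that the recovery inverts, 1585 of 1585 pileups were recovered. Peaks planted on the upper ends of 200 genes, picked to lie apart from other protein-coding ends, gave 200 of 200 calls. Among 21887 genes there were 0 extra calls. These runs check the code and do not cover crowded loci. Computations ran in Python 3.11.15 with scipy 1.17.1, pandas 2.3.3, numpy 2.4.6, matplotlib 3.10.9 and statsmodels 0.14.6.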

Additional observations from a re-analysis of the deposited data

How the results depend on the processing

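With windows of 500 or 2500 bp, an overlap of 200 bp, the summit inside the window, or peaks of a fold of at least 5, a pileup of at least 20 fragments or a −log10 q of at least 10, the number of the 10 genes marked at an end stayed at 9 and the number marked at a start at 7 of 7. Their median fold stayed at 7.57. The thresholds on fold, pileup and −log10 q could not change these values. Every main peak had a fold of at least 5.76, at least 32 fragments and a −log10 q of at least 17.2. Over the same settings the marked share of all protein-coding genes ran from 57.4%, with a fold of at least 5, to 80.5% within 2500 bp, and the other pathway genes marked ran from 14 to 18 of 20. The 23 peaks of bodies and flanks became 17 with no flanks, 17 with 2 kb flanks, 28 with 10 kb flanks, 20 with 200 bp of overlap, 21 with a fold of at least 5 and 17 with a −log10 q of at least 10. Genes with an internal peak numbered 2 with a pileup of at least 20 fragments, without Asz1, and 3 otherwise. No paired analysis was possible because there is 1 library. With pileups of 32 to 45 fragments, the counting intervals of the main peaks overlapped in all 45 pairs of genes. Differences between the genes were not tested.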
